A study of Homo sapiens with 9 samples.

Results

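The 46 genes described here act in G2 phase and mitosis: they encode mitotic cyclins and kinases, kinetochore and spindle checkpoint proteins, spindle motors, and proteins of sister separation and cytokinesis. They were taken by name from a list made with earlier results of these data known, not by a measured value. All 46 were found among the 60664 genes of the count tables, and all 46 were among the 18264 genes that had enough counts to be tested. RNA came from MDA-MB-231 cells, a human triple-negative breast cancer line, in 9 samples collected on day 6, 3 in each of 3 groups. Scramble control cells (SC), which carry a non-targeting hairpin, were kept at 0.77 cP, close to the viscosity of water, or at 8 cP. The third group, shTRPV4 cells at 8 cP, labelled as a TRPV4 knockdown, carried a short hairpin RNA against TRPV4, a calcium-permeable ion channel. All cells were lentivirally transduced populations kept under puromycin. The 8 cP medium was thickened with methylcellulose, which the 0.77 cP medium lacked, and an effect of the additive apart from viscosity was not tested here. Knockdown cells at 0.77 cP are not analysed here, so that the effect of viscosity could not be compared with and without the hairpin. Whether a difference between shTRPV4 and SC cells came from loss of TRPV4, from another effect of the hairpin or from the transduced populations was not tested.

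Cells enter mitosis when cyclin B bound to CDK1 is switched on by CDC25 phosphatases against the brake of WEE1. Kinetochores then attach chromosomes to spindle microtubules, the spindle assembly checkpoint holds CDC20 until attachment is complete, and the anaphase-promoting complex (APC/C) marks cyclin B and securin for destruction. Most of these genes are transcribed as a wave in late S and G2 phase, under the MuvB complex with B-Myb (MYBL2) and FOXM1, which acts through promoter elements called the cell cycle genes homology region (CHR) together with CCAAT boxes bound by NF-Y. In RNA from a whole culture, more cells in G2 and mitosis cannot be told apart from more RNA of these genes in each cell.

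The samples held 64571681 to 103518036 counts. Levels are given as CPM, the usual depth-scaled count, with library sizes adjusted by the TMM method of edgeR. Fold changes come from the quasi-likelihood test of edgeR, with p-values adjusted over all genes tested by the Benjamini-Hochberg method and called at 0.05. The methods call repeated experiments independent in general, but neither they nor the labels say whether the replicates of these RNA samples were separate cultures, so p-values measure the spread between these samples, which may be technical. TRPV4 had 40, 28 and 54 counts in SC cells at 0.77 cP, 64, 45 and 24 in SC cells at 8 cP, and 7, 1 and 13 in shTRPV4 cells, so that no shTRPV4 sample overlapped with the SC samples. Of the genes listed to check the line, VIM, listed as present, was at 766 to 1049 CPM as group means. Of those listed as low or absent, ESR1, PGR and CDH1 were below 0.1 CPM, but EPCAM was at 18.1 to 19.0 CPM as group means. CD44, AXL and ERBB2 were also listed and are not given here. Of 8 markers of fibroblasts, leukocytes and endothelium, 5 were testable. Their sum over all 8 was 42.1 to 51.6 CPM in SC cells at 0.77 cP, 27.0 to 32.2 CPM in SC cells at 8 cP and 24.4 to 28.8 CPM in shTRPV4 cells, and 4 of them (COL1A1, COL1A2, PDGFRB and PECAM1) fell with viscosity. Of the other markers among the 8, DCN had at most 2 counts in any sample, CD3E at most 6 and CDH5 at most 1, while PTPRC had 5 to 17. The part of these markers' change in the results was not tested.

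Because the members are known to share promoter elements, the 80 bases before the start were taken from RefSeq (GRCh38.p14) for the 6 members with the smallest p for viscosity and the 6 with the smallest p for the knockdown. They are written 5′ to 3′ on the strand of the gene, and capitals mark every CHR (TTTGAA or TTCGAA) and CCAAT box (CCAAT), searched on both strands, so that TTCAAA and ATTGG are matches on the other strand. No marked match overlaps another. The first 6 are those of viscosity.
CCNA2 (chr4:121823884-121823963, minus): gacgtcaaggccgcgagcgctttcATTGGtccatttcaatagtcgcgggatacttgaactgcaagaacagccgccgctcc
TOP2A (chr17:40417897-40417976, minus): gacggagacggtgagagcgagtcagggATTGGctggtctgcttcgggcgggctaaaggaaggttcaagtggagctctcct
ANLN (chr7:36389782-36389861, plus): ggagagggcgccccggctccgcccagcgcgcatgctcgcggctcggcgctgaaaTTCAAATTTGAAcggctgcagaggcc
KIF11 (chr10:92593050-92593129, plus): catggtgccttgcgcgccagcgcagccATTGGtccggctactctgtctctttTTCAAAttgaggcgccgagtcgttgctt
KIF23 (chr15:69414269-69414348, plus): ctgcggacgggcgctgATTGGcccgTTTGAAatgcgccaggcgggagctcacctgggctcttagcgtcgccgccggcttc
MYBL2 (chr20:43667034-43667113, plus): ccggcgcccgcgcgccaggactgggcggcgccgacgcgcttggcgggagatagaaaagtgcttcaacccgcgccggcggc

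The next 6 windows are those of the knockdown, and none of those printed holds either element. CDC25B and CDC25C each have 4 RefSeq windows, of which the first listed is printed. In the 80 bases before another start, CDC25C has a CHR (window 4, position -30) and a CCAAT box (window 2, position -12). CDC25B there has a CHR (window 3, position -38) and a CCAAT box (position -73).
CDC25C (chr5:138338356-138338435, minus): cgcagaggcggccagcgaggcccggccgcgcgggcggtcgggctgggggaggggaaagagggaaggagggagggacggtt
MAD2L1 (chr4:120066849-120066928, minus): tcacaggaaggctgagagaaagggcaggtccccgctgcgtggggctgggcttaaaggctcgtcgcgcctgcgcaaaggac
KIF2C (chr1:44739757-44739836, plus): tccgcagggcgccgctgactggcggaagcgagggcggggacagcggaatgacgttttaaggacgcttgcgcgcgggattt
CDC25B (chr20:3786871-3786950, plus): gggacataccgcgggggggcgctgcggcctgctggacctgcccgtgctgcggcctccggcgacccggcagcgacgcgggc
CENPE (chr4:103198344-103198423, minus): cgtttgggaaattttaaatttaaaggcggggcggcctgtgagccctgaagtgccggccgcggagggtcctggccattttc
NUF2 (chr1:163321874-163321953, plus): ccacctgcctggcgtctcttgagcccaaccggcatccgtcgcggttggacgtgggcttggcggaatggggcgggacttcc

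With every listed window of a gene counted, 80 bases before the start held a CHR in 18 of the 39 members with a RefSeq promoter (46.2%), against 4.8% of 27305 genes in the table, and 28 (71.8%) held a CCAAT box, against 17.8%. In the whole window of 250 bases before to 50 after the start, 30 members (76.9%) held a CHR, against 19.5% of all genes, and 25 (64.1%) held a CHR and a CCAAT box, against 7.85%. In that window MAD2L1 and NUF2 held a CHR just after the start, CDC25B and CDC25C held one at other starts, and KIF2C and CENPE held none. A CHR was held by 13 of 18 members that rose with viscosity (72.2%) and 17 of 21 that were not called (81%), and by 5 of 7 members that fell with the knockdown (71.4%) and 24 of 31 not called (77.4%). A match is a run of letters only.

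**Figure D1:**
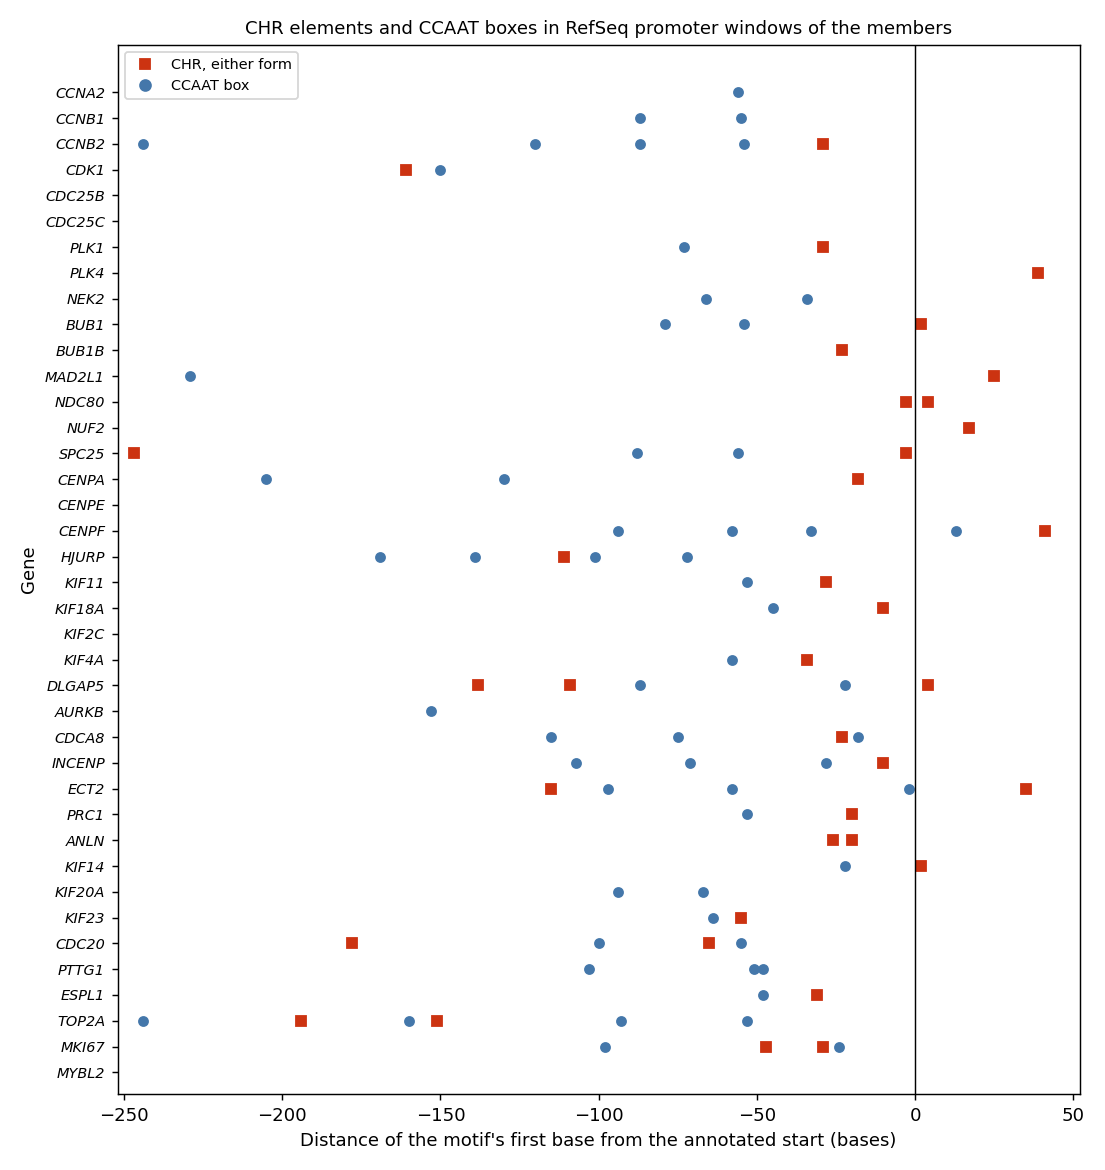
Distance in bases of each CHR (squares) and CCAAT box (circles) from the annotated start, in the first RefSeq window (250 bases before to 50 after) of each of 39 members, on either strand. The members with an empty row (CDC25B, CDC25C, CENPE, KIF2C and MYBL2) had neither element in that window.

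At 8 cP against 0.77 cP in SC cells, 21 of the 46 members rose and 0 fell. All of the rises were small, from 10.7% to 25.5%, with CCNA2, TOP2A, KIF23, MYBL2, KIF11 and ANLN having the smallest p. Over all genes tested, 9.57% rose and 9.69% fell, so that 45.7% of members rose against 9.57% in the background. At an unadjusted p below 0.05, edgeR gave 32 members higher and 0 lower, but the share of all genes at this threshold is not given here. By adjusted p, DESeq2 gave 24 members higher and 0 lower, and 2083 of all 18264 genes higher. The median log2 fold change of the members was 0.15 (range -0.07 to 0.33), against -0.006 for all genes tested. Samples did not overlap in 25 members that were higher and 1 that was lower (CDK1), whereas 19.4% and 19% of all genes separated in these directions.

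The count rested on single libraries. It was 7 without replicate 1 of SC cells at 0.77 cP, 11 without replicate 2, and 7 without replicate 3 of SC cells at 8 cP, with medians of 0.14, 0.15 and 0.13. The 7 members that were called under every alternative and without every sample were CCNA2, KIF11, KIF4A, ANLN, KIF23, TOP2A and MYBL2.

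With TRPV4 knocked down at 8 cP, the members as a group moved little and a few moved apart. In shTRPV4 against SC cells, 7 members fell (15.2%, against 11% of all genes) and 1 rose (2.17%, against 9.02%). The 7 were CDC25B, CDC25C, NUF2, CENPE, HJURP, KIF2C and DLGAP5, lower by 10.3% to 21.6%, and the 1 that rose was MAD2L1, higher by 25.4%. The median log2 fold change of the members was -0.055, against 0.001 for all genes, and it was -0.006 without replicate 3 of SC cells at 8 cP. Samples did not overlap in 16 members that were lower and 2 that were higher, against 18.8% and 17.6% of all genes. The count of members that fell was 3 without replicate 2, and 3 without replicate 3, of SC cells at 8 cP. CDC25C and KIF2C fell and MAD2L1 rose under every alternative and without every sample.

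The outer groups, shTRPV4 cells and SC cells at 0.77 cP, differ in both viscosity and hairpin. Here 23 members were higher in shTRPV4 cells (50%, against 20.4% of all genes) and 6 were lower (13%, against 22%). Those that were higher differed by 9.4% to 33.8%, led by KIF23 and MAD2L1. The 6 that were lower were CDK1, CDC25B, CDC25C, NUF2, HJURP and KIF2C, by 9.6% to 22.2%. The median was 0.135, against -0.011 for all genes. The count of 23 was 15 without replicate 1 of SC cells at 0.77 cP and 15 without replicate 2 of shTRPV4 cells. The 3 comparisons share samples, so the values of each are set side by side below. Counts by role below are to be read against the shares of all genes in the same comparison. For counts at an unadjusted p, no share of all genes is given.

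**Figure D2:**
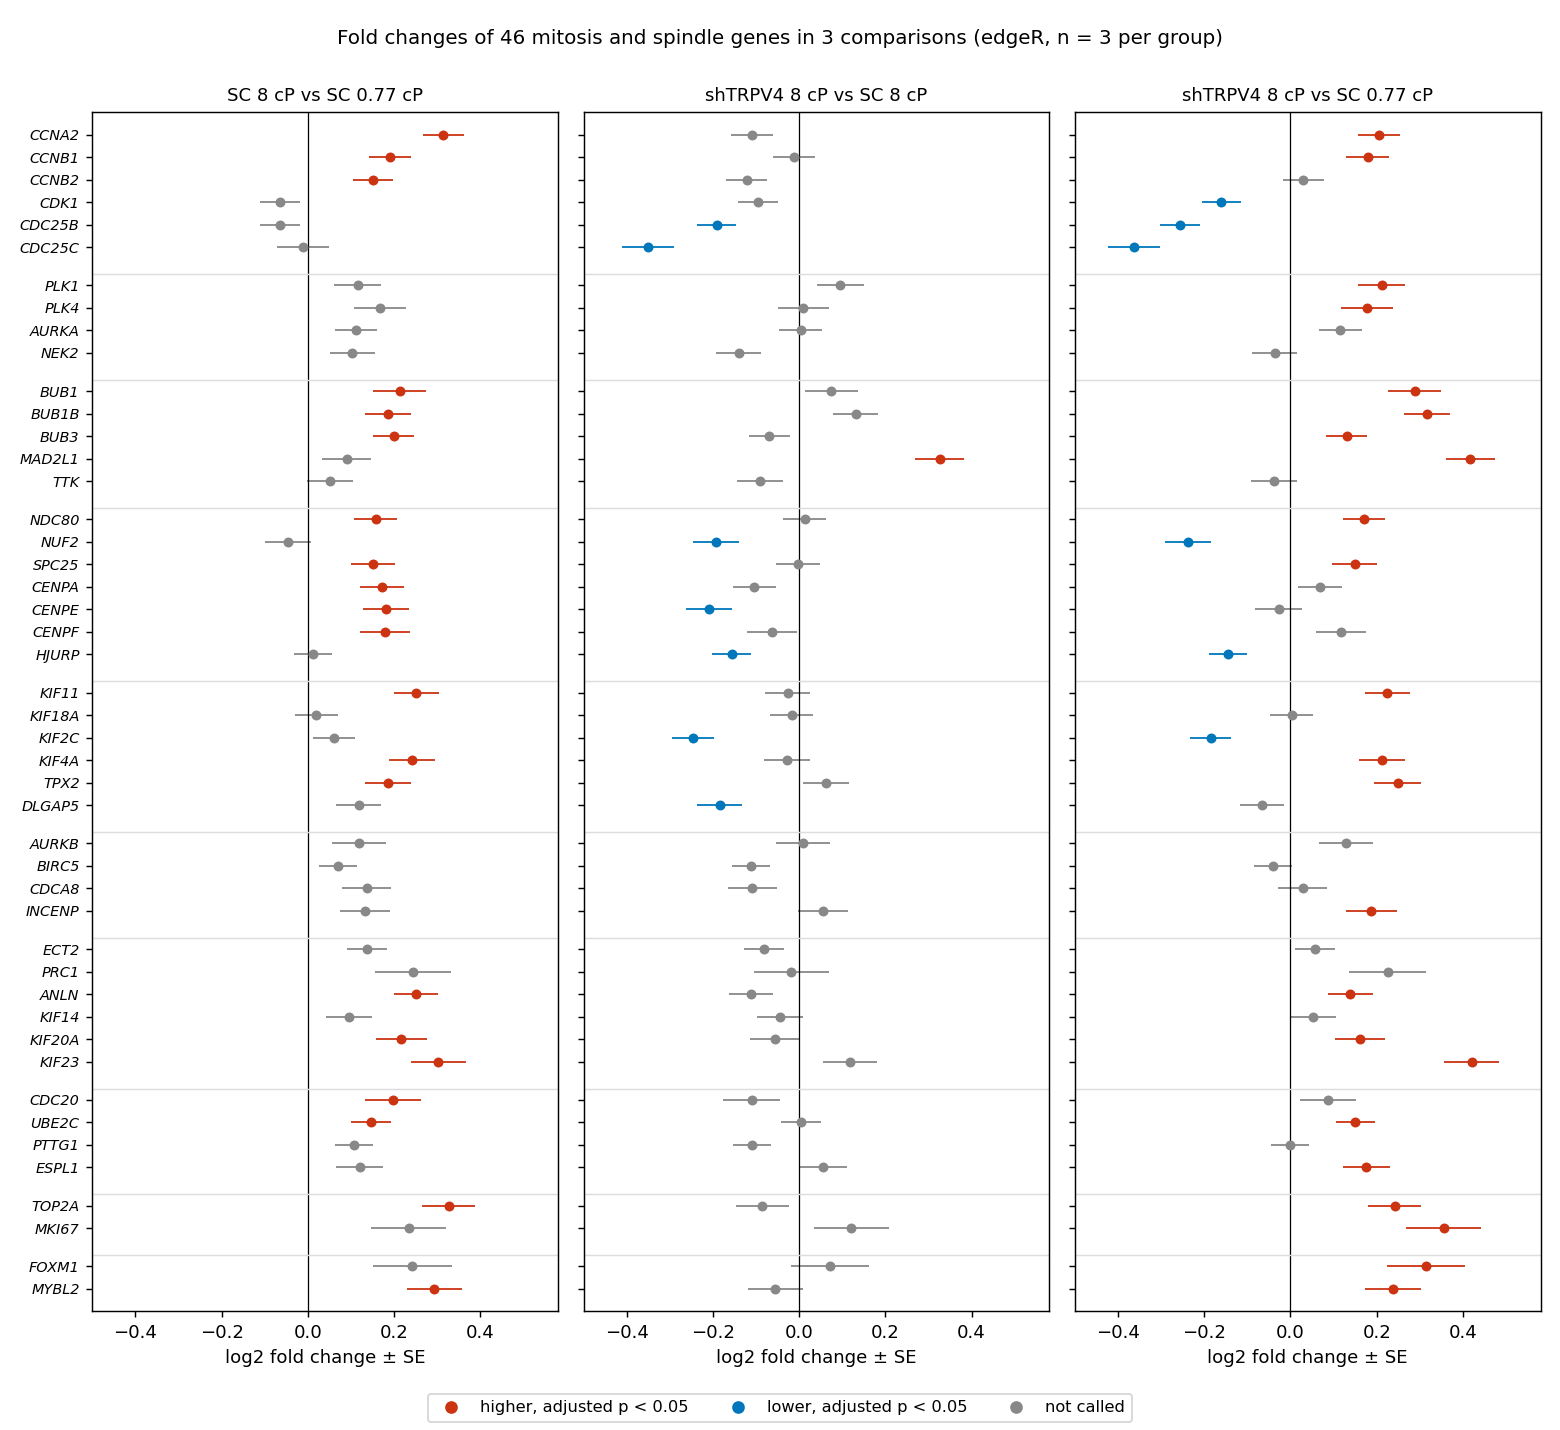
Log2 fold change (point) and standard error (bar) of each of the 46 members in the 3 comparisons, 3 samples per group, grouped by role in the order of the text, with red for higher and blue for lower at an edgeR adjusted p below 0.05. Left, most members lie right of 0 and 21 are red. Middle, 7 are blue and MAD2L1 is red. Right, 23 are red and 6 are blue.

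All cyclins among the members were called higher with viscosity, and both CDC25 phosphatases among the members were called lower with the knockdown. Outside the members, CDC25A rose with the knockdown and WEE1, which opposes these phosphatases, fell. Cyclin A2 (CCNA2), which drives S phase and entry into mitosis, was at 189.9, 206 and 211 CPM in SC cells at 0.77 cP, at 242, 253 and 259.8 CPM in SC cells at 8 cP, and at 225, 235 and 239 CPM in shTRPV4 cells. Every sample at 8 cP lay above every sample at 0.77 cP, and the shTRPV4 samples lay below the SC samples at 8 cP. The rise with viscosity was 24.4% (log2 fold change 0.31, SE 0.05, edgeR adjusted p = 0.000759), the smallest p of any member in that comparison. The knockdown difference of -0.11 (SE 0.05, edgeR adjusted p = 0.128) did not pass the test.

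Cyclin B1 (CCNB1), the main partner of CDK1 in mitosis, was at 243, 269 and 278 CPM at 0.77 cP, at 300.5, 295 and 306 CPM in SC cells at 8 cP, and at 291, 301 and 301 CPM in shTRPV4 cells. It rose by 14.1% with viscosity (log2 fold change 0.19, SE 0.05, edgeR adjusted p = 0.0153) and the groups at 8 cP overlapped. This call was lost without replicate 1 of SC cells at 0.77 cP (edgeR adjusted p = 0.0767) and without replicate 3 of SC cells at 8 cP. Cyclin B2 (CCNB2) rose by 11.1% with viscosity, a call kept in 4 of 9 leave-one-out fits, and its mean in shTRPV4 cells was 92.1 CPM, against 90.2 CPM in SC cells at 0.77 cP. CDK1, the mitotic kinase itself, went the other way: it was at 268, 263 and 268 CPM, at 246, 261 and 257 CPM, and at 226, 249 and 240.4 CPM in the same order of groups. No step between neighbouring groups passed the test, but between the outer groups CDK1 was 10.5% lower (log2 fold change -0.16, SE 0.05, edgeR adjusted p = 0.0102).

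Both CDC25 phosphatases among the members fell with the knockdown, and neither was called for viscosity. CDC25C was at 30.1, 32.8 and 29.1 CPM in SC cells at 0.77 cP, at 28.5, 31.8 and 30.9 CPM in SC cells at 8 cP, and at 22.9, 24.5 and 24.0 CPM in shTRPV4 cells. The 2 groups of SC cells overlapped, and all shTRPV4 samples lay below them. The fall at 8 cP was 21.6% (log2 fold change -0.35, SE 0.06, edgeR adjusted p = 0.000776), while the difference between the SC groups was -0.01, with a 95% interval of -0.139 to 0.116. CDC25B was at 169, 175 and 170.3 CPM, at 174, 163 and 155 CPM, and at 145, 141 and 145 CPM in the same order, and fell by 12.4% with the knockdown (log2 fold change -0.19, SE 0.05, edgeR adjusted p = 0.00817). Without replicate 1 of SC cells at 8 cP its fall no longer passed the test (edgeR adjusted p = 0.0582). In the role as a whole, 3 of 6 members rose with viscosity (50%, against 9.57% of all genes). With the knockdown, 2 of 6 fell (33.3%, against 11%). Between the outer groups 2 were higher and 3 lower (33.3% and 50%, against 20.4% and 22% of all genes). For the knockdown, no log2 fold change of the 6 lay above 0 (range -0.352 to -0.012). At an unadjusted edgeR p below 0.05, 4 of 6 were lower, with no share of all genes given at that threshold.

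Among the other mitotic kinases, no member of 4 was called for viscosity or the knockdown, with 2 higher for viscosity and 1 lower for the knockdown at an unadjusted edgeR p below 0.05. DESeq2 called 1 of 4 higher with viscosity and 0 with the knockdown. PLK1, the polo-like kinase of centrosome maturation and mitotic entry, was at 95.1, 99.3 and 109 CPM in SC cells at 0.77 cP, at 112, 105 and 111 CPM in SC cells at 8 cP, and at 120.5, 111 and 119.7 CPM in shTRPV4 cells. The neighbouring groups overlapped, but the outer groups did not, and between these PLK1 was 15.8% higher (log2 fold change 0.21, SE 0.05, edgeR adjusted p = 0.00539). AURKA, the Aurora kinase of the spindle poles, was at 183, 194 and 209 CPM, at 208, 207 and 219 CPM, and at 217, 210.3 and 208 CPM. Its difference with viscosity was 0.11 (SE 0.05, edgeR adjusted p = 0.129), and that with the knockdown was 0.004, with an interval of -0.102 to 0.110. PLK4, which starts centriole duplication, was higher between the outer groups by 0.18 on the log2 scale, a call lost without replicate 1 or 2 of SC cells at 0.77 cP or replicate 2 of shTRPV4 cells. NEK2, which separates centrosomes, was called in no comparison.

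In the spindle assembly checkpoint, 3 of 5 members rose with viscosity (60%, against 9.57% of all genes). With the knockdown 1 rose (20%, against 9.02%), and 4 were higher between the outer groups (80%, against 20.4%). BUB1, a checkpoint kinase, was at 174, 185 and 205 CPM at 0.77 cP, at 210.3, 213 and 231 CPM in SC cells at 8 cP, and at 243, 231 and 215 CPM in shTRPV4 cells. BUB1B (BubR1), part of the complex that holds CDC20, was at 77.2, 80.1 and 88.2 CPM, at 90.3, 92.2 and 96.7 CPM, and at 106, 102 and 98.5 CPM. For both, every sample at 8 cP lay above every sample at 0.77 cP, and for BUB1B the shTRPV4 samples also lay above the SC samples at 8 cP. With viscosity, BUB1 rose by 15.9% (log2 fold change 0.21, SE 0.06, edgeR adjusted p = 0.0261) and BUB1B by 13.7% (0.19, SE 0.05, edgeR adjusted p = 0.0238). Both calls were lost without replicate 1 of SC cells at 0.77 cP (edgeR adjusted p = 0.127 and 0.112), without replicate 2 of that group and without replicate 3 of SC cells at 8 cP. Between the outer groups they were higher by 22.1% and 24.5%, called without every sample in turn.

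BUB3, their shared partner, was at 243, 263 and 266 CPM at 0.77 cP, at 282, 296 and 308 CPM in SC cells at 8 cP, and at 279, 283 and 282 CPM in shTRPV4 cells. It rose by 14.8% with viscosity (log2 fold change 0.20, SE 0.05, edgeR adjusted p = 0.00983), a call lost without replicate 1 of SC cells at 0.77 cP and without replicate 3 of SC cells at 8 cP (edgeR adjusted p = 0.0586). MAD2L1 (MAD2), the protein that binds CDC20 at unattached kinetochores, had another pattern: 139, 132 and 138 CPM, then 135, 154 and 147 CPM, then 168, 188 and 191 CPM. Its SC groups overlapped, and every shTRPV4 sample lay above all 6 SC samples. MAD2L1 rose by 25.4% with the knockdown (log2 fold change 0.33, SE 0.06, edgeR adjusted p = 0.000905), while its difference with viscosity was 0.09, with an interval of -0.031 to 0.212. TTK, the kinase that starts checkpoint signalling, was called in no comparison.

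Of the 7 kinetochore and centromere members, 5 rose with viscosity (71.4%, against 9.57% of all genes). With the knockdown, 3 fell (42.9%, against 11%). CENPE, the kinetochore motor that moves chromosomes to the spindle equator, was the only one of the 46 members called for both viscosity and the knockdown. It was at 127, 135 and 141 CPM in SC cells at 0.77 cP, at 142, 154 and 161 CPM in SC cells at 8 cP, and at 129.7, 136 and 129 CPM in shTRPV4 cells. The SC samples at 8 cP lay above all others, and the other groups overlapped. CENPE rose by 13.4% with viscosity (log2 fold change 0.18, SE 0.05, edgeR adjusted p = 0.028) and fell by 13.5% with the knockdown (-0.21, SE 0.05, edgeR adjusted p = 0.0125), and the 2 differences share the SC samples at 8 cP. Without replicate 3 of these samples neither passed the test (edgeR adjusted p = 0.137 and 0.0667), nor without replicate 2. The rise was also lost without replicate 1 and without replicate 2 of SC cells at 0.77 cP.

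The NDC80 complex binds microtubules at the kinetochore, and its 3 listed subunits did not move together. NUF2 was at 117, 119 and 123 CPM at 0.77 cP, at 109.6, 119 and 119 CPM in SC cells at 8 cP, and at 93.8, 107 and 103.5 CPM in shTRPV4 cells, the lowest group. It fell by 12.5% with the knockdown (log2 fold change -0.19, SE 0.05, edgeR adjusted p = 0.0183), a call lost without replicate 2 (edgeR adjusted p = 0.0848) or 3 of SC cells at 8 cP or replicate 1 of shTRPV4 cells. NDC80 rose by 11.5% with viscosity (log2 fold change 0.16, SE 0.05, edgeR adjusted p = 0.037), and its knockdown difference was 0.01, with an interval of -0.092 to 0.118. SPC25 was the member nearest to the threshold, with a rise of 11.1% at an edgeR adjusted p of 0.0499, and it was called in 3 of 9 leave-one-out fits. The difference between NUF2 and its partners was not tested. CENPA, the histone of centromeres, and CENPF, an outer kinetochore protein, rose with viscosity by 12.7% and 13.3%. Neither these 2 nor NDC80 and SPC25 passed the test without replicate 1 of SC cells at 0.77 cP, nor without replicate 3 of SC cells at 8 cP. HJURP, the chaperone that loads CENPA, fell by 10.3% with the knockdown (log2 fold change -0.16, SE 0.04, edgeR adjusted p = 0.0211), and this call was lost without replicate 2 or 3 of SC cells at 8 cP or replicate 3 of shTRPV4 cells.

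Spindle motors also differed by member. KIF11 (Eg5), the motor that pushes the spindle poles apart, was at 173, 171 and 189 CPM at 0.77 cP, at 209, 204 and 222 CPM in SC cells at 8 cP, and at 219, 204 and 199.8 CPM in shTRPV4 cells. Both groups at 8 cP lay above the group at 0.77 cP and overlapped with each other. KIF11 rose by 19.0% with viscosity (log2 fold change 0.25, SE 0.05, edgeR adjusted p = 0.00488), and its knockdown difference was -0.03, with an interval of -0.138 to 0.084. KIF4A, a chromosome-bound motor, and TPX2, which activates AURKA on the spindle, rose by 18.3% and 13.8%. The TPX2 call was lost without replicate 1 or 2 of SC cells at 0.77 cP and without replicate 1 or 3 of SC cells at 8 cP.

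KIF2C (MCAK), which takes microtubules apart at kinetochores to correct wrong attachments, was at 184, 193 and 204 CPM at 0.77 cP, at 195, 199 and 211 CPM in SC cells at 8 cP, and at 172, 171 and 167 CPM in shTRPV4 cells. All shTRPV4 samples lay below all SC samples. The fall with the knockdown was 15.7% (log2 fold change -0.25, SE 0.05, edgeR adjusted p = 0.00199), and the difference with viscosity was 0.06, with an interval of -0.041 to 0.162. DLGAP5 (HURP), which stabilizes spindle fibres, fell by 0.18 on the log2 scale with the knockdown (edgeR adjusted p = 0.0206), a call lost without replicate 2 or 3 of SC cells at 8 cP or replicate 1 of shTRPV4 cells. KIF18A, which limits the length of kinetochore fibres, stayed between 77.2 and 86.8 CPM in all samples and was called in no comparison.

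The chromosomal passenger complex, which corrects attachments and later directs cytokinesis, had no member of 4 called for viscosity or the knockdown. At an unadjusted edgeR p below 0.05, 2 were higher with viscosity and 1 was lower with the knockdown, and DESeq2 called 0 in either comparison. INCENP, its scaffold, was at 104.5, 92.5 and 109 CPM at 0.77 cP, at 112, 109 and 116 CPM in SC cells at 8 cP, and at 123, 112 and 114 CPM in shTRPV4 cells. The group at 0.77 cP overlapped with SC cells at 8 cP but not with shTRPV4 cells, where INCENP was 13.9% higher (log2 fold change 0.19, SE 0.06, edgeR adjusted p = 0.0168). That call was lost without replicate 2 of SC cells at 0.77 cP (edgeR adjusted p = 0.0843) and without replicate 1 of shTRPV4 cells. AURKB, the kinase of the complex, BIRC5 (survivin) and CDCA8 (borealin) differed by 0.07 to 0.14 with viscosity and were called in no comparison.

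**Figure D3:**
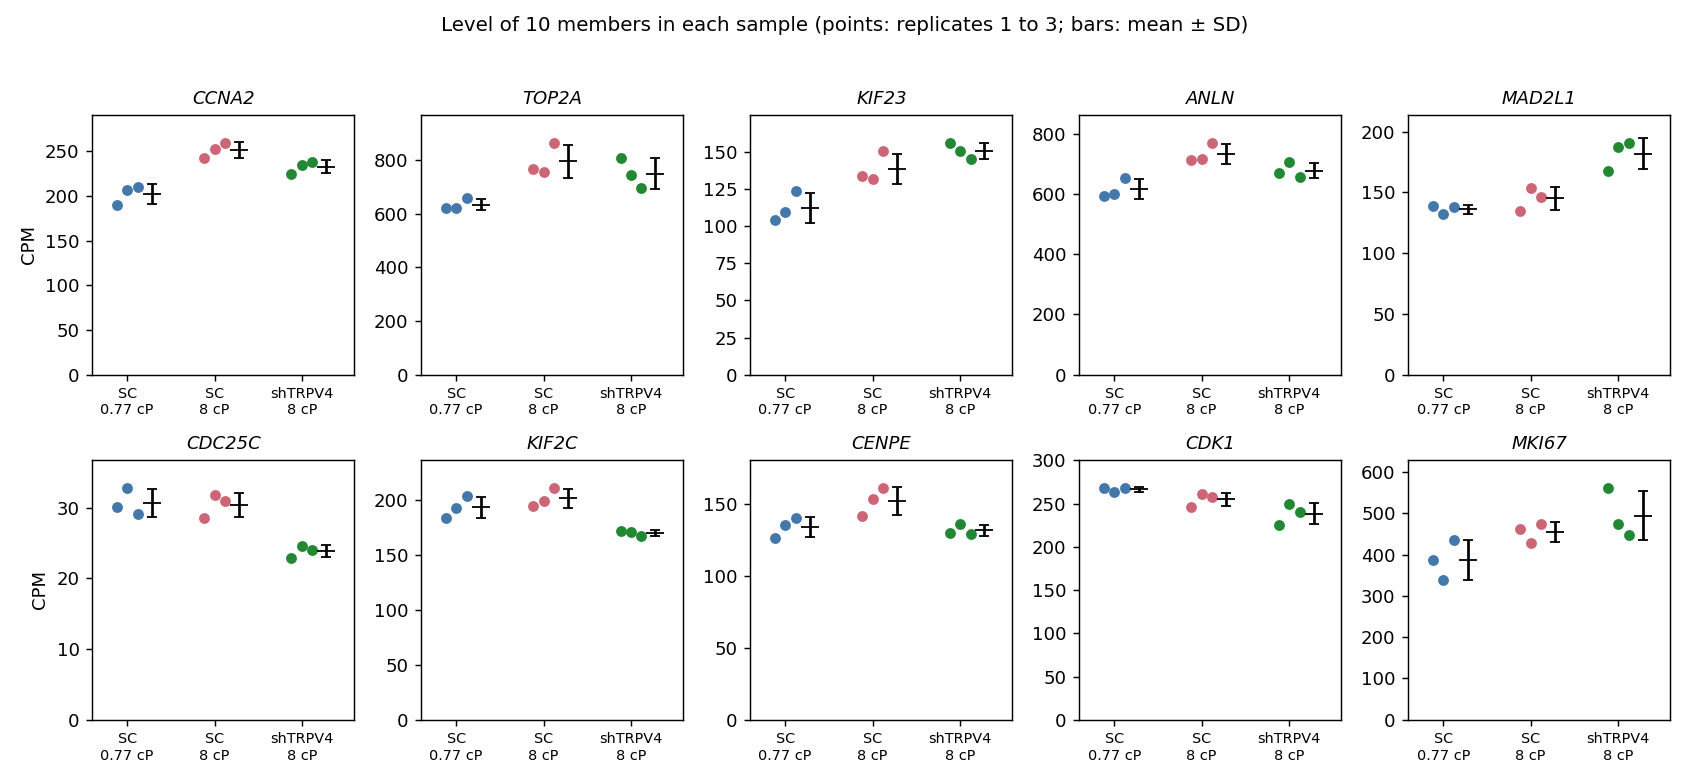
Level in CPM of 10 members in each of the 9 samples (points) with the group mean ± SD (bars, n = 3), with axes that start at 0. CCNA2, TOP2A, KIF23 and ANLN are higher in both groups at 8 cP than at 0.77 cP, MAD2L1 is highest and CDC25C and KIF2C are lowest in shTRPV4 cells, and CENPE is highest in SC cells at 8 cP.

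Cytokinesis members rose with viscosity in 3 of 6 cases (50%, against 9.57% of all genes). No member was called for the knockdown, with 1 lower at an unadjusted edgeR p below 0.05 and 0 called by DESeq2. KIF23 (MKLP1), the motor subunit of centralspindlin, which bundles the midzone, was at 104.4, 109 and 124 CPM at 0.77 cP, at 134, 132 and 150.4 CPM in SC cells at 8 cP, and at 156, 151 and 145 CPM in shTRPV4 cells. Neither group at 8 cP overlapped with the group at 0.77 cP. KIF23 rose by 23.3% with viscosity (log2 fold change 0.30, SE 0.06, edgeR adjusted p = 0.00521). Between the outer groups it was 33.8% higher (0.42, SE 0.06, edgeR adjusted p = 8.64e-05), the largest difference of any member in any comparison by log2 fold change.

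ANLN (anillin), a scaffold of the contractile ring, was at 594, 599 and 654 CPM at 0.77 cP, at 713, 715 and 770.4 CPM in SC cells at 8 cP, and at 671, 706 and 657 CPM in shTRPV4 cells. Its SC samples at 8 cP lay above all others, by 19.0% against 0.77 cP (log2 fold change 0.25, SE 0.05, edgeR adjusted p = 0.0043). Its knockdown difference of -0.11 (SE 0.05, edgeR adjusted p = 0.143) did not pass the test. KIF20A, another midzone motor, rose by 16.2% with viscosity, a call lost without replicate 1 or 2 of SC cells at 0.77 cP or replicate 3 of SC cells at 8 cP. ECT2, the exchange factor that activates RhoA at the ring, lay just outside the threshold, with 10.0% at an edgeR adjusted p of 0.0508. PRC1, the midzone bundling protein, had 4.61 to 6.05 CPM, and 3181 of its exon bases are shared on the same strand with ENSG00000284946, so that its level is uncertain. KIF14 was called in no comparison.

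For sister separation, 2 of 4 members rose with viscosity (50%, against 9.57% of all genes). For the knockdown 0 were called (1 lower at an unadjusted edgeR p below 0.05, 0 by DESeq2). CDC20, the APC/C activator that the checkpoint holds, rose by 14.6%, and UBE2C, its ubiquitin-conjugating enzyme, by 10.7%. CDC20 was called in 3 and UBE2C in 4 of 9 leave-one-out fits, and neither without replicate 1 or 2 of SC cells at 0.77 cP or replicate 2 or 3 of SC cells at 8 cP. ESPL1 (separase), the protease that cuts cohesin, was higher between the outer groups by 0.18 on the log2 scale, a call lost without replicate 2 of SC cells at 0.77 cP or replicate 2 of shTRPV4 cells, and PTTG1 (securin), its inhibitor, was at 177.7 CPM in shTRPV4 cells against 177.9 CPM in SC cells at 0.77 cP.

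TOP2A, which untangles sister chromatids, had the largest rise with viscosity. It was at 622, 623 and 658 CPM at 0.77 cP, at 767, 754 and 865 CPM in SC cells at 8 cP, and at 809.6, 746 and 695 CPM in shTRPV4 cells. All samples at 8 cP lay above those at 0.77 cP, and the rise in SC cells was 25.5% (log2 fold change 0.33, SE 0.06, edgeR adjusted p = 0.00276). MKI67 (Ki-67), the proliferation marker that coats mitotic chromosomes, was at 386, 338 and 436 CPM, at 462, 427 and 475 CPM, and at 561, 474 and 448 CPM. The SC groups overlapped, and its rise of 17.6% did not pass the test in edgeR (log2 fold change 0.23, SE 0.09, adjusted p = 0.0699), while DESeq2 gave an adjusted p of 0.0327. Between the outer groups MKI67 was higher (log2 fold change 0.36, SE 0.09, edgeR adjusted p = 0.00371).

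Of the transcription factors that drive this gene wave, MYBL2 (B-Myb) was at 94.5, 94.7 and 112 CPM at 0.77 cP, at 119.8, 118 and 131 CPM in SC cells at 8 cP, and at 124, 114 and 117 CPM in shTRPV4 cells. Both groups at 8 cP lay above the group at 0.77 cP. The rise with viscosity was 22.6% (log2 fold change 0.29, SE 0.06, edgeR adjusted p = 0.00648). FOXM1 varied more between replicates than any other member in both SC groups, with a coefficient of variation of 13.3% and 8.78%, and its difference with viscosity was 18.3% (0.24, SE 0.09, edgeR adjusted p = 0.0726). Neither factor was called for the knockdown, with 0 at an unadjusted edgeR p below 0.05 and 0 by DESeq2.

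Members moved together within groups. In SC cells at 0.77 cP, replicate 3 was the highest sample in 39 of 46 members and replicate 1 the lowest in 34. In SC cells at 8 cP, replicate 3 was the highest in 37 and replicate 1 the lowest in 27. shTRPV4 cells had no such order, with replicate 1 highest in 21 members and lowest in 17. As medians over the members, relative to the mean of SC cells at 0.77 cP on the log2 scale, the samples were at -0.069, -0.020 and 0.074, at 0.128, 0.143 and 0.200, and at 0.144, 0.137 and 0.098. No sample at 8 cP fell below the highest sample at 0.77 cP, and the 8 cP groups overlapped. These shifts are shared by members of a library, so that the 21 calls are not 21 independent observations, and the part of the libraries in them was not tested.

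**Figure D4:**
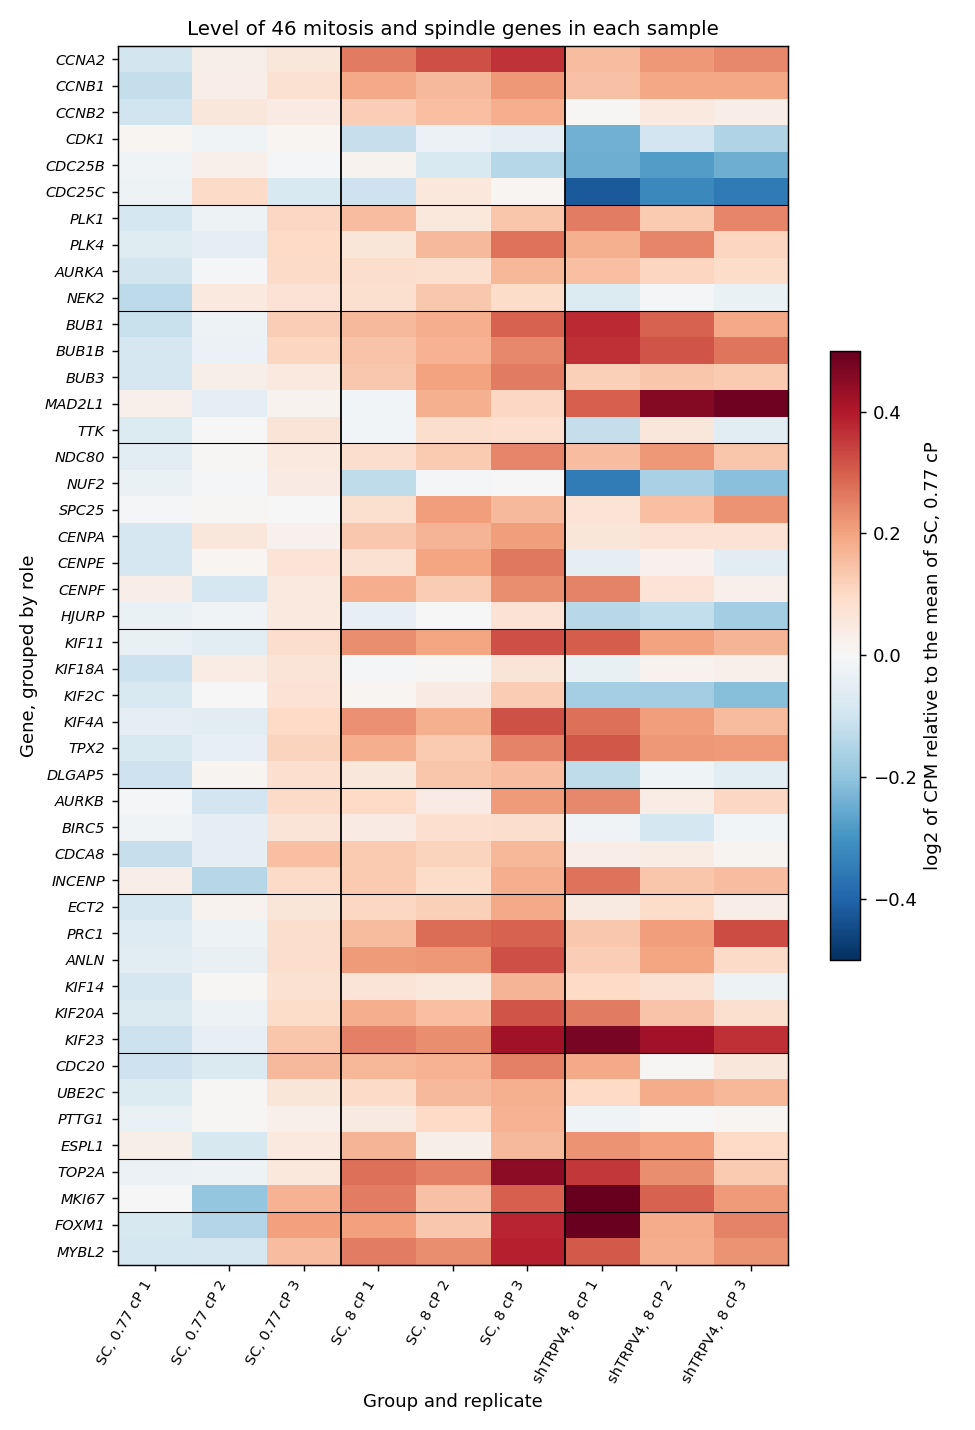
Level of each of the 46 members (rows, by role) in each of the 9 samples (columns), as log2 of CPM relative to the mean of SC cells at 0.77 cP. Most rows turn red at 8 cP, replicate 3 of SC cells at 8 cP is the reddest column of its group, and CDK1, CDC25B, CDC25C, NUF2, HJURP and KIF2C turn blue in shTRPV4 cells.

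Other mitotic genes, listed by function but with earlier results of these data known, also rose in part with viscosity. Of 33 further kinetochore and centromere genes, 16 rose and 0 fell (median log2 fold change 0.17), with SPDL1, KNL1 and CENPO having the smallest p at 0.32, 0.33 and 0.35. Condensin and cohesin, the rings that fold and hold chromosomes, had 12 of 17 genes higher and 0 lower (median 0.21), with SMC2 higher by 27.4%, and PDS5B and PDS5A at 0.33 and 0.24. Of 20 further spindle and cytokinesis genes, 8 rose and 0 fell, with CKAP2L at 0.35. APC/C subunits and regulators had 6 of 17 higher and 1 lower, further entry and exit regulators 4 of 14 higher, and the MuvB and DREAM complex genes 3 of 10 higher, with RBL1 at 0.37. Genes of DNA replication and S phase had the largest share, with 33 of 44 higher and 0 lower (median 0.25), MCM6, CCNE1 and RFC3 rising by 0.31, 0.45 and 0.33. All of these stand against 9.57% of all genes tested.

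Between shTRPV4 and SC cells at 8 cP, the shares called are to be read against 9.02% higher and 11% lower over all genes. Entry and exit regulators had 1 of 14 higher and 3 lower (21.4%), and MuvB and DREAM genes 2 of 10 higher (20%) and 1 lower. Further kinetochore genes had 1 of 33 higher and 3 lower, condensin and cohesin 1 of 17 higher, further spindle and cytokinesis genes 2 of 20 lower, and the APC/C 2 of 17 lower. DNA replication had 8 of 44 higher and 0 lower, with 3 lower at an unadjusted edgeR p below 0.05 and 1 lower by DESeq2. RACGAP1 (ENSG00000161800), the partner of KIF23 in centralspindlin, had the largest log2 fold change on these lists. It was at 210.2, 213 and 229.8 CPM in SC cells at 0.77 cP, at 224, 231 and 237 CPM in SC cells at 8 cP, and at 123, 126 and 122 CPM in shTRPV4 cells. The SC groups overlapped, and the shTRPV4 samples lay far below them. RACGAP1 fell by 46.5% with the knockdown (log2 fold change -0.90, SE 0.05, edgeR adjusted p = 5.21e-09), while KIF23 differed by 0.12, with an interval of -0.017 to 0.253. Of its exon bases, 137 are shared with AQP6 on the other strand.

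The regulators of CDK1 outside the members split with the knockdown. CDC25A, the phosphatase of G1 and S phase, was at 36.5, 38.3 and 46.4 CPM at 0.77 cP, at 45.1, 46.2 and 49.4 CPM in SC cells at 8 cP, and at 65.7, 59.5 and 58.3 CPM in shTRPV4 cells. It rose by 30.5% with the knockdown (log2 fold change 0.38, SE 0.08, edgeR adjusted p = 0.0023), whereas CDC25B and CDC25C fell. WEE1, the kinase that opposes them, fell by 17.1% (log2 fold change -0.27, SE 0.05, edgeR adjusted p = 0.00263), and ARPP19, which restrains the phosphatase that opposes CDK1, by 0.23 on the log2 scale. MAD1L1, the kinetochore partner of MAD2L1, fell by 0.43 on the log2 scale (edgeR adjusted p = 0.00954), whereas MAD2L1 rose. Of the exon bases of MAD1L1, 3004 are shared on the same strand with ENSG00000286192, so that its level is uncertain, as is that of PRC1.

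Between the outer groups, DNA replication and S phase had 41 of 44 genes higher and 0 lower (median 0.31), and condensin and cohesin 12 of 17 higher and 0 lower, against 20.4% and 22% of all genes. CCNE1, the cyclin of S phase entry, was at 12.9 to 15.8 CPM in SC cells at 0.77 cP, at 18.4 to 20.5 CPM in SC cells at 8 cP and at 23.6 to 25.8 CPM in shTRPV4 cells, 3 ranges that did not overlap. The other mitotic lists differed. APC/C genes had 8 higher and 5 lower of 17, and entry and exit regulators 6 higher and 3 lower of 14. Further kinetochore genes had 13 higher and 2 lower of 33, and further spindle and cytokinesis genes 7 higher and 1 lower of 20. MuvB and DREAM genes had 5 higher and 0 lower of 10.

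**Figure D5:**
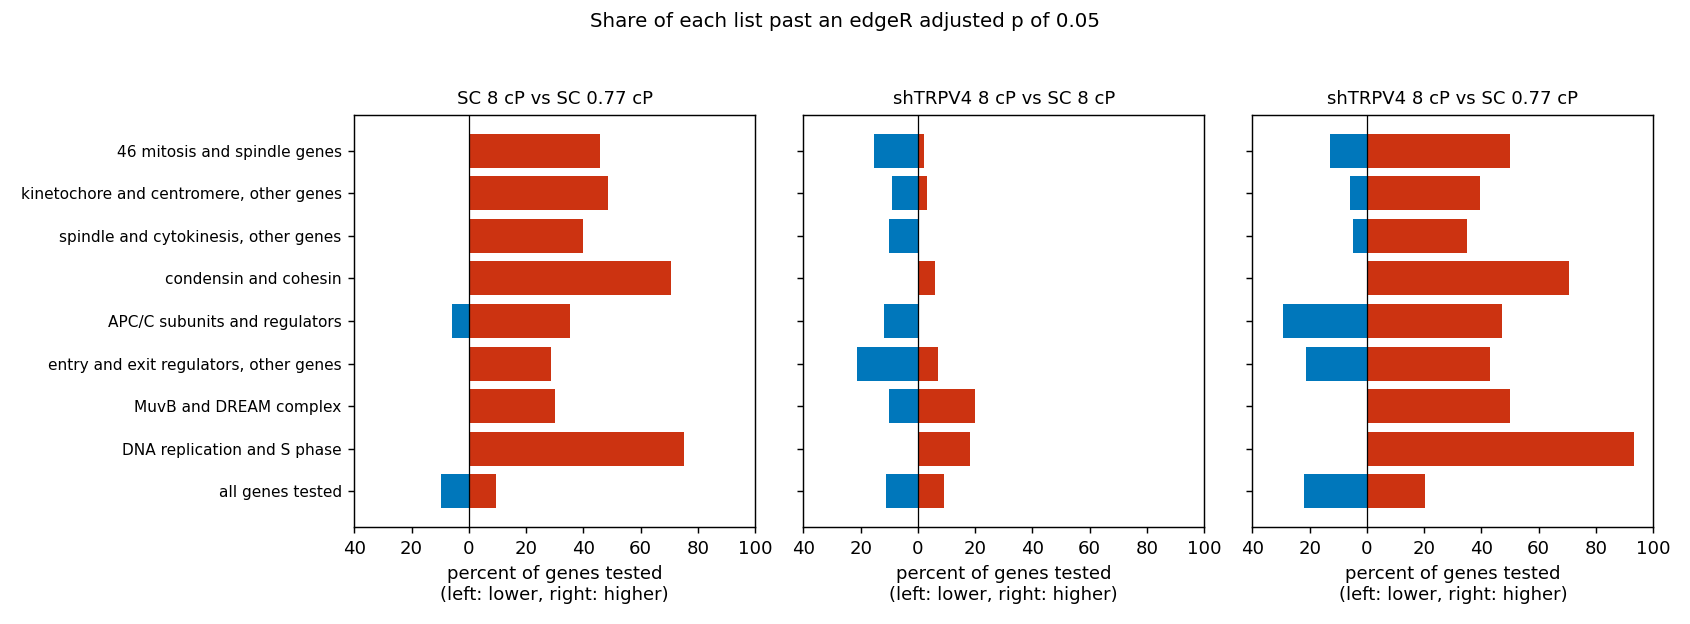
Percent of each list past an edgeR adjusted p of 0.05, higher to the right (red) and lower to the left (blue), in the 3 comparisons, with the 46 members on top and all 18264 genes tested at the bottom. For viscosity 45.7% of members and 75% of the S phase list were higher against 9.57% of all genes, and for the knockdown 15.2% of members were lower against 11%.

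Per kilobase of exon, over all samples, UBE2C had the highest mean level of the members (163 CPM per kb), followed by CDC20 (129). CCNB1 (118), TPX2 (114.5) and TOP2A (114.0) came next, with ranges over samples that overlapped. The lowest were PRC1 (0.977, uncertain because of its shared exon bases), ESPL1 (6.63) and CDC25C (8.498). The ranges over samples of UBE2C and CDC20 did not overlap (145 to 173 and 113 to 144), while those of CDC20 and CCNB1 overlapped.

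The counting option for strand is not given in the sources used here, so exon bases shared with a gene on the other strand can change the counts, in a direction that was not tested. Of the members in full above, PLK1 shares 611 such bases, CDC25C 293, CCNA2 254, KIF23 231, KIF2C 175 and ANLN 78, and FOXM1 shares 782. BUB1B shares 457 bases on its own strand with a read-through gene and its neighbour.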

How the data were processed

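Strand-specific poly(A) libraries were read in pairs and mapped with HISAT2 2.2.1 to GRCh38.p13, as given in the methods and the submitters' processing notes, which also name SAMtools 1.1.3, HTSeq 0.13.5 and DESeq. The deposited values are raw counts per Ensembl gene, which the authors did not normalize. Symbols were matched for 60463 of 60664 genes through a reference list of gene names, and GENCODE release 44 gave exon lengths and shared bases.

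Samples were grouped by their labels. Counts were scaled by TMM and filtered by filterByExpr, and a model with a mean for each group was fitted (edgeR 4.0.16, R 4.3.3, all 9 samples, common biological coefficient of variation 0.0633). The methods were tested on simulated data. Alternatives were DESeq2 1.42.0, upper quartile scaling, no filter, at least 10 counts in every sample, the 6 samples of a comparison alone, the replicate number as a block, and leaving out each sample.

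The members and all gene lists were chosen with earlier results of these data known. Members given in every sample were the 6 with the smallest p among those called in each comparison, plus MKI67, CDK1, CCNB1, PLK1, AURKA, BUB3 and INCENP, and of other lists up to 3 genes with the smallest p. The count of all 16 marker genes of the line and of other cells was 1 higher and 5 lower with viscosity. RefSeq promoters were matched by symbol for 39 of 46 members, not for AURKA, BUB3, TTK, TPX2, BIRC5, FOXM1 and UBE2C, and the first window of each gene was printed.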

Additional observations from a re-analysis of the deposited data

How the results depend on the processing

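With DESeq2, upper quartile scaling, either other filter, the replicate block or the 6 samples of a comparison alone, every count over all 46 members stayed within 1.5 times its value, and leaving out a sample moved some of them further. Smaller lists moved more. Under upper quartile scaling 1 of 4 members of sister separation rose with viscosity in place of 2, and between the outer groups 1 cytokinesis member was higher in place of 3 and 1 kinetochore member in place of 2. DESeq2 called 1 of the other mitotic kinases in place of 0 and both chromosome structure members in place of 1. Members higher with viscosity ranged from 7 to 30, members lower with the knockdown from 3 to 9, and members higher between the outer groups from 15 to 27 (median log2 fold change from 0.123 to 0.186, the highest without replicate 3 of SC cells at 0.77 cP). No called value changed sign. Under upper quartile scaling the all-gene median moved to -0.016, -0.005 and -0.026, and the members' medians were 0.142, -0.061 and 0.119.

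With the replicate block, 23 members were higher with viscosity, 1 was higher and 7 were lower with the knockdown, and 24 were higher and 6 lower between the outer groups. Each of the 21, 8 and 29 calls without the block was kept. Over all groups, deviations of same-numbered samples correlated at -0.0546 to 0.0904 across genes, other pairs at -0.1063 to 0.1148. Between the SC groups, same-numbered samples correlated at 0.0320 to 0.0904, above the other pairs at -0.0591 to 0.0167. With shTRPV4 cells, same-numbered pairs lay at -0.0546 to 0.0381, within the range of the other pairs. Whether the numbers pair the SC samples was not tested.

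Where 1 group was left with 2 samples, the spread was shared with the other groups. PRC1, the member with the fewest counts (304 to 566), was not called for viscosity at a difference of 18.4%, while members with more counts were called at 10.7%. With the 250 bases before the start alone, 59% of members held a CHR (17.2% of all genes) and 53.8% a CHR and a CCAAT box (6.24%).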
